A study of Mus musculus with 8 samples.

Results

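Trimethylation of histone H3 at lysine 4 (H3K4me3) at promoters was compared between wild-type (wt) mouse embryonic stem cells (mESCs) and the pancreatic islet-like endocrine cells (PILECs) grown from them. The comparison was defined by the sample labels alone. It used 4 of the 8 libraries of the series, namely 1 H3K4me3 ChIP library and 1 input library of each cell type, all from the wt TC-1 line of 129S6/SvEvTac background. The mESCs had been kept on irradiated mouse feeder cells with leukaemia inhibitory factor and were grown without feeders before use. The PILECs were derived from TC-1 mESCs through embryoid bodies, a serum-free selection step, expansion with N2 and B27 supplements and fibroblast growth factor, and a last step with nicotinamide. The remaining 4 libraries came from menin-null mESCs, in which both copies of Men1 are disrupted, and from menin-null PILECs. They share no library with the wt pair and are given beside it as a pair of another genotype, not as a replicate. Over exons 3 to 8 of Men1 (chr19:6336725-6338961, mm9) the inputs held 17 tags in wt mESCs, 22 in wt PILECs and 0 in each menin-null culture. Each group was 1 library from 1 cell line and from a whole culture, so no test across replicates was possible and no p-value is given.

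H3K4me3 is placed by complexes of the SET1 and MLL families, and menin is a subunit of the complexes that hold MLL1 or MLL2. The mark sits on nucleosomes just downstream of the transcription start site (TSS) of most active genes. In embryonic stem cells it also lies, at lower levels and together with H3K27me3, on CpG island promoters of many silent developmental regulators. On differentiation such promoters may keep, gain or lose the mark, while promoters that serve the pluripotent state usually lose it. Islet endocrine cells arise in the embryo from definitive endoderm by way of Pdx1-positive pancreatic and Neurog3-positive endocrine progenitors, and mature beta cells make insulin from Ins1 and Ins2.

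The libraries differed in depth. The wt mESC H3K4me3 library held 2432377 uniquely placed tags of 36 bases and the wt PILEC library 18773635, or 7.72 times as many. The matching inputs held 4248298 and 19016697 tags. Tags within 1 kb of an annotated TSS made up 43.5% of the mESC and 42.7% of the PILEC H3K4me3 tags, but 7.50% of the mESC and 4.65% of the PILEC input tags. The inputs thus also differed at promoters. Summed over tested promoters, the log2 ratio of PILEC input over mESC input was -1.27, and the part of this difference in the H3K4me3 ratios was not tested.

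Levels are given as tags per 1000000 tags of the library (RPM) within 1 kb of the TSS, in windows of equal length for all genes. A promoter was tested if it held at least 4 RPM in at least 1 of the 2 H3K4me3 libraries and there at least 2 times the RPM of its input. It was called gained or lost when PILECs differed from mESCs at least 2-fold with 0.5 RPM added to both levels and the 95% exact binomial (Clopper-Pearson) interval of the log2 ratio excluded 0. Such intervals cover counting error only. Ratios of single promoters are given without the added 0.5 RPM, while medians over lists include it. A promoter under 4 RPM in 1 library could be tested only through the other library, so counts over tested promoters describe the calls and are no evidence of a direction. In a whole culture, fewer cells of a type and less of the mark per cell cannot be told apart.

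Of 26212 genes, 15142 had a tested promoter. H3K4me3 was gained at 1058 (6.99%) and lost at 1940 (12.8%), while 12144 (80.2%) were called neither. The median log2 ratio over all tested promoters was -0.01, and the middle range from the 25th to the 75th percentile ran from -0.45 to 0.40. At 4-fold, 892 promoters were lower in PILECs and 216 higher. Gained promoters made up 35.3% of the calls. This split depended on the use of the inputs: when each ratio was divided by the ratio of the inputs within 5 kb, 3850 promoters were gained and 1171 lost, which put the gained share at 76.7% and the median log2 ratio at 0.56. Of the main calls, 960 (90.7%) of the gained and 1128 (58.1%) of the lost promoters kept their call under that division.

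Gained promoters were mostly not new sites of the mark. Their median level was 8.22 RPM in mESCs and 24.4 RPM in PILECs, against inputs of 1.88 and 1.05 RPM, and 770 of the 1058 (72.8%) already passed the level and input criteria in mESCs. Only 12 had no mESC tag, and 106 had 3 or fewer. Lost promoters had a median of 12.7 RPM in mESCs and 2.56 RPM in PILECs, with inputs of 2.35 and 0.947 RPM. Of these, 748 (38.6%) still passed the criteria in PILECs. Promoters called neither stood higher in both cell types, at medians of 33.3 and 34.5 RPM. In all, 13419 promoters passed in both libraries, 1298 in mESCs alone and 425 in PILECs alone.

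**Figure D1:**
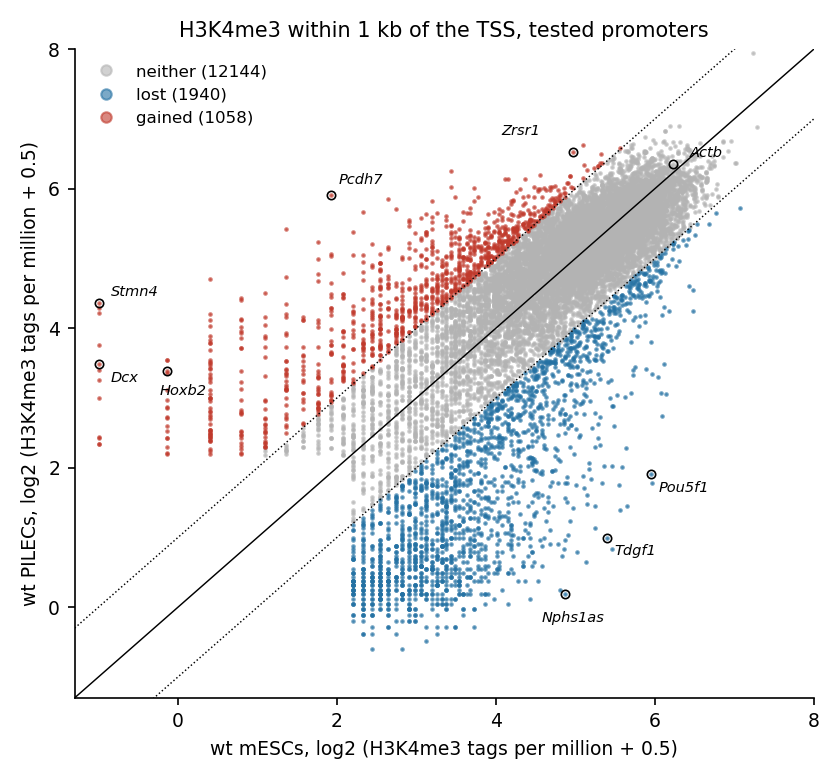
H3K4me3 level of each tested promoter in wt mESCs (horizontal axis) and wt PILECs (vertical axis), as log2 of RPM with 0.5 added, with 1 point per promoter coloured by call, 1 library per cell type, a solid line at equal levels, dotted lines at 2-fold and some named promoters circled. Most of the 15142 promoters lie between the dotted lines, with 1940 lost promoters below them and 1058 gained ones above.

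The mark kept its position relative to the start. Averaged over each class, the highest value lay 150 bp downstream of the TSS in both cell types. It was 1.18 RPM per 100 bp in mESCs and 2.63 in PILECs at gained promoters, 2.16 and 0.548 at lost promoters, and 4.07 and 3.43 at the others. The inputs reached no more than 0.203 in mESCs and 0.0575 in PILECs. The length of the marked stretch is counted from the same tags as the calls and is given as a description. With PILEC tags thinned to the mESC depth, the median length with the mark within 5 kb of the start went from 400 to 1200 bp at gained promoters and from 600 to 0 bp at lost ones, and it was 1200 bp in both cell types at the others. It was longer in PILECs at 966 and shorter at 17 of the gained promoters, longer at 39 and shorter at 1734 of the lost ones, and longer at 6225 and shorter at 3280 of the others.

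**Figure D2:**
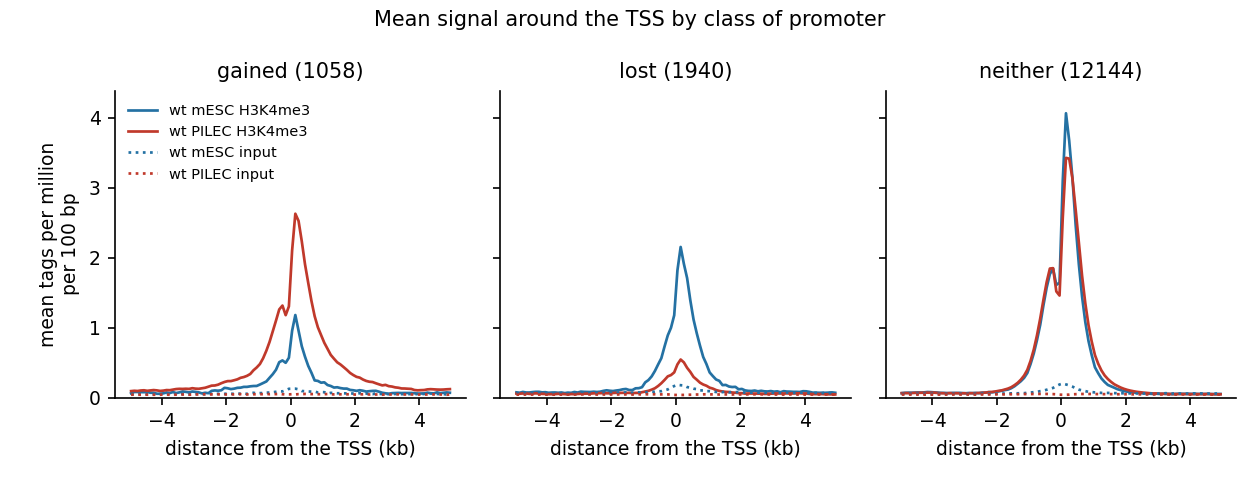
Mean H3K4me3 (solid) and input (dotted) signal in RPM per 100 bp (vertical axis) against distance from the TSS in kb (horizontal axis) for gained, lost and uncalled promoters, in wt mESCs and wt PILECs. The highest H3K4me3 point lies 150 bp downstream of the start in each class, and it is 2.16 in mESCs and 0.548 in PILECs at lost promoters but 1.18 and 2.63 at gained ones.

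Gained and lost promoters both held fewer CpG dinucleotides than the rest. The ratio of observed to expected CpG dinucleotides within 500 bp of the start, which is high in CpG islands, had a median of 0.58 at gained and 0.58 at lost promoters and 0.77 at the others. Among the 873 tested promoters with a ratio below 0.4, 20% were gained and 42.6% lost. Among the other 14269, these shares were 6.19% and 11%. The 300 bases from 250 before to 50 after the start are printed here for 4 promoters on which the results turn, read from the mm9 reference, with every CG in capitals. Dcx (chrX:140367544-140367843, minus strand) is a neuronal gene with no mESC tag, Tdgf1 (chr9:110848613-110848912, minus strand) and Fgf4 (chr7:152047041-152047340, plus strand) are pluripotency genes among the strongest losses, and Actb (chr5:143667451-143667750, minus strand) is a housekeeping gene that was called neither. The reference is of another mouse strain than the cells, so the printed bases may differ from those of TC-1.
Dcx: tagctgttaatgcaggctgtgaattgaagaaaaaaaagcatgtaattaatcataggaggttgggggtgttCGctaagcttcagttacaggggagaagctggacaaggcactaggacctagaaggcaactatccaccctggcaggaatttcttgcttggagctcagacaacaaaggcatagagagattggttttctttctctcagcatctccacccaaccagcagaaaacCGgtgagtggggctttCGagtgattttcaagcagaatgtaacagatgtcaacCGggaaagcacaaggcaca
Tdgf1: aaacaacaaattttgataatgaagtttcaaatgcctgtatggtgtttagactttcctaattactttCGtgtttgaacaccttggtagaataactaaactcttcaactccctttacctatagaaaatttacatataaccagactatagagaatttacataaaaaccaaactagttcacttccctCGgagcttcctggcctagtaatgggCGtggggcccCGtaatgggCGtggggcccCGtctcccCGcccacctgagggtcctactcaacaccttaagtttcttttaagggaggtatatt
Fgf4: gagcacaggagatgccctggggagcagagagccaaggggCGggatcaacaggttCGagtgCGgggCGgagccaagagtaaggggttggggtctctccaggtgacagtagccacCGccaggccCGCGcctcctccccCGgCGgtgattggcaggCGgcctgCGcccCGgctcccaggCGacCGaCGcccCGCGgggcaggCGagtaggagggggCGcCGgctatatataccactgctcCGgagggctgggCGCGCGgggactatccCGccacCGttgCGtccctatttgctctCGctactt
Actb: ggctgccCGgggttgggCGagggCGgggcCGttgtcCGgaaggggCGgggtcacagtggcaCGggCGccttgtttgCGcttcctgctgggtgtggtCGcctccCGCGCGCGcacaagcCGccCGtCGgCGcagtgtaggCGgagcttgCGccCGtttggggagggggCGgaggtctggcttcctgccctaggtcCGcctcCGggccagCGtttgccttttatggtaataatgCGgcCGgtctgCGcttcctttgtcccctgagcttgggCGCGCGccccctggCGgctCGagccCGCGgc
The Dcx promoter held 4 CG dinucleotides, against 35 in Actb. Fgf4 held 28 and Tdgf1 held 7. Within 500 bp of the start the ratio of observed to expected CpG was 0.77 at Fgf4 and 0.60 at Tdgf1. In the printed 300 bases, lost promoters could hold many or few CG. Over all tested promoters the median in this window was 23, with 15 at gained, 16 at lost and 25 at uncalled promoters. Windows with 5 or fewer CG made up 10.9% of the gained, 12.7% of the lost and 2.03% of the uncalled promoters, and 4.02% of all tested.

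Base composition moved with the ratio between libraries. Tested promoters were placed in 10 groups of similar size by GC content within 500 bp. In the group with the lowest GC content (33.9 to 51.9%), 20.9% were gained and 16.8% lost, and the median log2 ratio was 0.28. In the group with the highest (69.9 to 82.2%), 0.868% were gained and 9.02% lost, with a median of -0.32. The log2 ratio of the inputs moved the same way, from -0.58 in the lowest group to -1.95 in the highest, and its part in the calls was not tested. With the median of each GC group set to 0, 940 promoters were gained and 1933 lost. These included 868 (82.0%) of the gained and 1827 (94.2%) of the lost calls. The level in the libraries also went with the share called. In the lowest of 5 groups by mean level (2.24 to 13.3 RPM), 13.6% were gained and 44.7% lost, and in the highest (46.5 to 198 RPM) 0.627% and 1.22%.

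The strongest losses included promoters of several genes of the undifferentiated state. Named here are the 12 promoters per direction whose interval bound nearest 0 lay farthest from 0. The 12 lost ones held 31 to 151 mESC and 6 to 55 PILEC tags, with 3 to 17 and 10 to 28 input tags. Fgf4, a growth factor secreted by embryonic stem cells, stood at 62.1 RPM in mESCs and 2.93 RPM in PILECs, a log2 ratio of -4.41 (-4.88 to -3.95). Tdgf1, a co-receptor of Nodal also known as Cripto, went from 41.5 to 1.49 RPM, a log2 ratio of -4.80 (-5.46 to -4.18). Tdh, a threonine dehydrogenase on which mouse embryonic stem cells depend, went from 34.5 to 1.07 RPM, a log2 ratio of -5.02 (-5.80 to -4.30). All 3 thus ended under 3 RPM. L1td1 (49.7 to 2.24 RPM), Triml2 (32.1 to 1.23 RPM) and Fgf17 (22.6 to 0.799 RPM) were lost to a like extent. The others were Nphs1as (28.8 to 0.639 RPM), Dtx1, a regulator of Notch signalling (27.5 to 0.692 RPM), Rbmxl2 (43.6 to 1.28 RPM), Chrna9, a subunit of nicotinic acetylcholine receptors (12.7 to 0.320 RPM), Gm16997 and Gm9918. All 12 were also lower in menin-null PILECs than in menin-null mESCs, with log2 ratios from -6.36 to -4.52. The direction was the same at 1928 of all 1940 lost promoters, where the median log2 ratio over all promoters tested in the menin-null pair was -0.32.

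Among 30 tested pluripotency factors, 28 were lost, none was gained and 2 were called neither, where 12.8% of all tested promoters were lost and 6.99% gained. Members under 4 RPM in PILECs, such as Pou5f1 and Nanog, were tested through mESCs alone and could not be called gained. The median log2 ratio was -3.11 over the 30 tested and -2.94 over all 32 with an annotated start, against -0.01 over all tested promoters. The promoters of these 32 summed to 1046 RPM in mESCs and 214 RPM in PILECs, with inputs of 63.6 and 28.1 RPM. Pou5f1 (Oct4), a core factor of the pluripotent state, went from 61.3 to 3.25 RPM, a log2 ratio of -4.24 (-4.69 to -3.80) at an annotated start inside the gene. Nanog, another core factor, went from 39.9 to 2.93 RPM, a log2 ratio of -3.77 (-4.27 to -3.27). Esrrb (46.9 to 2.13 RPM), Zfp42, which encodes Rex1 (23.4 to 1.33 RPM), and Zscan10 (37.4 to 1.70 RPM) were lost by more than Nanog on the log2 scale, at -4.46, -4.14 and -4.46. Sox2, which serves neural progenitors as well, went from 58.4 to 26.8 RPM, a log2 ratio of -1.12 (-1.40 to -0.84). Klf4, a zinc finger factor also used in epithelia, was called neither (43.2 to 29.1 RPM, log2 ratio -0.57). Of the 28 lost factors, 27 were also lost in the menin-null pair, as were 81.8% of all wt losses.

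Germ line genes, some of which keep open promoters in mESCs, had 8 tested members of 15, which were tested through their mESC level alone, so that at their PILEC levels of under 1 RPM the call as lost was fixed by the criteria. The median log2 ratio over all 15 was -2.36. Ddx4, an RNA helicase of germ cells also known as Vasa, went from 12.3 RPM to 0.639 RPM, a log2 ratio of -4.27 (-5.37 to -3.26). The synaptonemal complex gene Sycp3 went from 9.46 to 0.533 RPM, and the smallest loss was that of Hormad1, at 4.11 to 0.799 RPM, a log2 ratio of -2.36. The menin-null pair lost 5 of these 8, against 81.8% of all wt losses.

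Of 14 epithelial genes 12 were tested and all 12 were lost, against 12.8% of all tested promoters. Members under 4 RPM in PILECs, such as Cldn4 and Grhl2, were tested through mESCs alone and could not be called gained. The median log2 ratio was -2.51 over the 12 tested and -2.43 over all 14. Over tested members it was -1.59 when ratios were divided by those of the inputs, where the median of all tested promoters became 0.56. Cdh1, the E-cadherin of epithelia and of mESC colonies, went from 69.9 to 7.83 RPM, a log2 ratio of -3.16 (-3.49 to -2.83). The tight junction gene Cldn4 had the lowest ratio (29.2 to 2.34 RPM, log2 ratio -3.64) and the transcription factor Ovol1 the highest (16.0 to 5.01 RPM, log2 ratio -1.68). Epcam (28.4 to 7.30 RPM) and Grhl2, a transcription factor of epithelia (26.3 to 3.99 RPM), lay between. The list summed to 331 RPM in mESCs and 56.5 RPM in PILECs, and 11 of the 12 were lost in the menin-null pair too (81.8% of all wt losses were).

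The strongest gains held several genes of neurons. The 12 named promoters held 0 to 11 mESC and 190 to 1120 PILEC tags, with 2 to 13 and 5 to 36 input tags, and 6 of them had no mESC tag. For these 6 the fold is given against 3 tags, which equal 1.23 RPM in the mESC library, and is no lower bound. Beside it stands the lower end of the 95% interval of the log2 ratio. Stmn4, a stathmin of neurons, had 0 mESC and 378 PILEC tags (20.1 RPM), 16.3-fold over 3 mESC tags (lower end 3.72). Gpm6a, a membrane glycoprotein of neurons, had 0 and 341 tags (18.2 RPM), 14.7-fold over 3 mESC tags (lower end 3.57). Lrrtm2, a synaptic adhesion protein, had 0 and 245 tags (13.1 RPM), 10.6-fold over 3 mESC tags (lower end 3.09). Dcx, the doublecortin of migrating neurons, had 0 and 201 tags (10.7 RPM), 8.68-fold over 3 mESC tags (lower end 2.81). In these 4 promoters the mark was thus seen in PILECs alone at this depth. Celf3, an RNA-binding protein of the nervous system, went from 0.822 to 25.7 RPM, a log2 ratio of 4.97 (3.11 to 8.02). Pcdh7, a protocadherin, went from 3.29 to 59.7 RPM, a log2 ratio of 4.18 (3.20 to 5.40), the highest PILEC level of the 12. The other 6 were transcripts known by clone names. Of these, 2810055G20Rik stood 15.4-fold over 3 mESC tags (lower end 3.64) and 2610203C20Rik went from 2.06 to 42.5 RPM. All 12 were higher in menin-null PILECs than in menin-null mESCs as well, with log2 ratios from 3.06 to 5.34. The direction was the same at 1029 of all 1058 gained promoters.

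Neural genes as a list were gained at 8 and lost at 3 of 22 tested members, against 6.99% gained and 12.8% lost over all tested promoters. Their median log2 ratio was 0.49. It was 0.33 with a window of 500 bp each side of the start and 1.32 with 2 kb. When divided by the inputs it was 0.96, where the median of all tested promoters became 0.56. The neural genes summed to 307 RPM in mESCs and 436 RPM in PILECs. Besides Dcx, Zic1, a transcription factor of the dorsal neural tube, went from 3.29 to 32.8 RPM, a log2 ratio of 3.32 (2.33 to 4.54). Fabp7, a fatty acid-binding protein of radial glia, went from 0.822 to 10.2 RPM, and the synaptic genes Syp and Snap25 went from 1.64 to 16.1 and from 5.34 to 30.0 RPM. Tubb3, the tubulin of young neurons, went from 18.1 to 48.7 RPM, a log2 ratio of 1.43. Pax3 (2.88 to 16.8 RPM) and Pou3f2 (12.3 to 30.9 RPM) were the remaining gains. The losses were Gfap, the intermediate filament of astrocytes (4.93 to 0.639 RPM), Pou3f1 (56.7 to 21.8 RPM) and Rbfox3 (30.0 to 12.2 RPM). Dcx, Zic1, Fabp7, Syp and Pax3 stood under 4 RPM in mESCs, so they were tested through PILECs alone and could not be called lost. Gfap was tested through mESCs alone and could not be called gained. The progenitor genes Sox3 (14.0 to 16.4 RPM) and Nes (23.4 to 21.0 RPM) were called neither. Of the 8 gains, 6 were also gained in the menin-null pair, against 52.9% of all wt gains.

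Some gained genes carried long stretches of the mark, picked here after their lengths were seen. With PILECs thinned to the mESC depth, the marked length within 5 kb of the start went from 200 to 6200 bp at Pou3f3, from 400 to 6000 bp at Meis1 and from 800 to 6000 bp at Meis2. These encode transcription factors of developing brain, limb and other organs. At the nuclear receptor genes Nr2f1 and Nr2f2 the length went from 200 and 800 bp to 4600 bp in each, and at Zic1 from 200 to 4000 bp. The window can hold the mark of neighbouring starts. At least 2 kb was marked at 243 of the 1058 gained promoters in PILECs and at 40 in mESCs, and at 1983 and 1539 of the 12144 uncalled promoters.

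Cadherins and protocadherins, adhesion molecules of many tissues, were looked at after the values of Pcdh7 and Cdh1 were seen, where 6.99% of all tested promoters were gained and 12.8% lost. Of 10 tested protocadherins with a number as their name, 7 were gained and none lost, at a median log2 ratio of 1.61. Of 15 tested cadherins, 7 were gained and 2 lost. Cdh2, the N-cadherin of neural and mesenchymal cells, went from 19.7 to 54.0 RPM (log2 ratio 1.45) and Cdh11, a cadherin of mesenchyme, from 7.81 to 47.5 RPM (log2 ratio 2.60). The losses were Cdh1 and Cdh3, the P-cadherin (31.7 to 6.39 RPM, log2 ratio -2.31). Claudins, which form tight junctions, were lost at 6 and gained at 1 of 12 tested. The 6 lost claudins stood under 4 RPM in PILECs, so they were tested through mESCs alone and could not be called gained. Gained members under 4 RPM in mESCs, such as Pcdh7 and Cdh10, were tested through PILECs alone and could not be called lost.

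**Figure D3:**
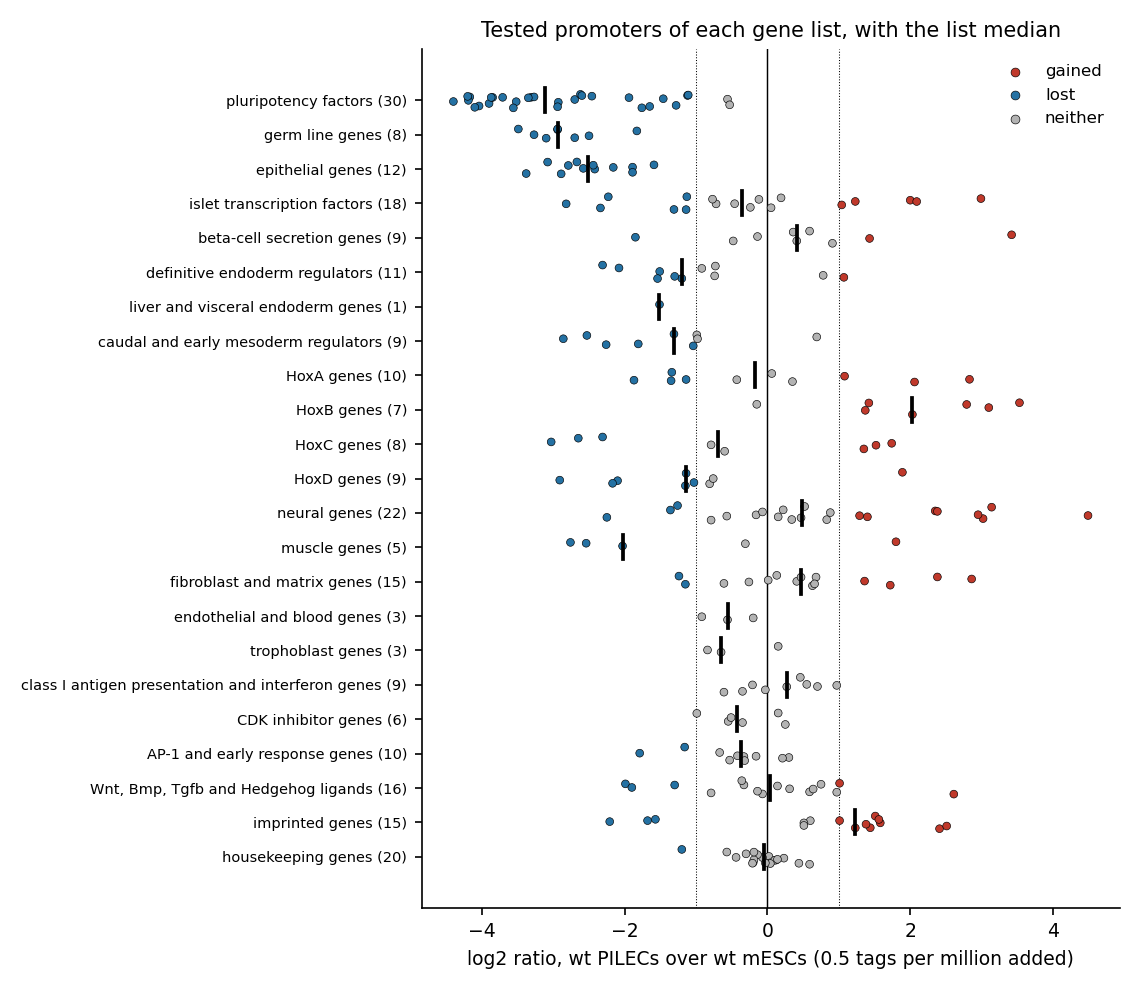
Log2 ratio of H3K4me3, wt PILECs over wt mESCs with 0.5 RPM added to both levels (horizontal axis), for each tested member of the gene lists (rows, number tested in brackets), with 1 point per promoter coloured by call, the median of each list as a bar and dotted lines at 2-fold. Pluripotency, germ line and epithelial genes lie to the left with medians of -3.11, -2.94 and -2.51, and HoxB (2.03) and imprinted genes (1.23) have the highest medians. The germ line genes shown were tested through mESCs alone, and their median over all 15 was -2.36. Pluripotency and epithelial genes under 4 RPM in PILECs were also tested through mESCs alone. The median was -2.94 over all 32 pluripotency genes with an annotated start and -2.43 over all 14 epithelial genes. The 6 gained HoxB genes were tested through PILECs alone, and the HoxB median over all 10 was 1.72.

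The promoters of islet hormones stood at the level of the inputs in both cell types. None of the 8 islet hormone genes had a tested promoter. They held 0 to 7 tags in mESCs and 4 to 24 in PILECs, or 0 to 2.88 RPM and 0.213 to 1.28 RPM, where the inputs held 0 to 3.53 and 0.421 to 1.58 RPM. Ins1 had 3 mESC and 4 PILEC tags, Ins2 had 3 and 17, and the glucagon gene Gcg had 1 and 7. Summed over the list, H3K4me3 stood at 5.70 RPM in PILECs against 7.15 RPM in their input. At this depth no H3K4me3 above the input was thus detectable at hormone promoters in the culture labelled as islet-like. The 8 acinar genes of the exocrine pancreas had no tested promoter either, with a sum of 5.01 RPM against an input of 6.68 RPM.

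Islet transcription factors were mixed, with 5 gained and 6 lost of 18 tested (6.99% and 12.8% of all tested promoters) and a median log2 ratio of -0.35, which became 0.51 when ratios were divided by those of the inputs and the median of all promoters became 0.56. Pdx1, the regulator of pancreas formation and of insulin transcription, went from 7.40 to 1.07 RPM, a log2 ratio of -2.80 (-3.79 to -1.79). Neurog3, which starts the endocrine programme, went from 12.3 to 2.24 RPM, a log2 ratio of -2.46 (-3.17 to -1.74). Mafa (20.6 to 7.99 RPM), Rfx6 (12.3 to 5.33 RPM) and Isl1 (18.5 to 8.20 RPM) were lost but kept more of the mark. Neurod1, a basic helix-loop-helix factor of islets and neurons, was near the same level in both, at 6.99 and 7.24 RPM with a log2 ratio of 0.05 (-0.68 to 0.87). The 5 gains ran from 1.07 to 3.27 on the log2 scale. Myt1, a zinc finger factor of endocrine and neural cells, went from 2.06 to 19.8 RPM, a log2 ratio of 3.27 (2.03 to 4.90). Sox9, a factor of pancreatic, cartilage and neural progenitors, went from 12.7 to 56.0 RPM, a log2 ratio of 2.14 (1.62 to 2.70). Glis3 was gained as well (11.1 to 23.3 RPM).

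Of the genes of beta-cell secretion, 2 were gained and 1 lost of 9 tested, against 6.99% gained and 12.8% lost over all tested promoters. Pcsk2, a prohormone convertase of endocrine and neural cells, went from 9.46 to 26.3 RPM (log2 ratio 1.47). The secretogranin gene Scg2 went from 0 to 91 tags (4.85 RPM), 3.93-fold over 3 mESC tags, a fold that is no lower bound. Abcc8, the sulphonylurea receptor, went from 14.0 to 3.52 RPM (log2 ratio -1.99). The glucose transporter gene Slc2a2, with 1 and 9 tags, was not tested. The neuroendocrine secretory gene Chga was called neither, at 15.2 and 20.4 RPM.

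Of 11 tested definitive endoderm regulators 6 were lost and 1 was gained, against 12.8% lost and 6.99% gained over all tested promoters. The median log2 ratio was -1.20, and -0.13 when ratios were divided by those of the inputs, where the median of all tested promoters became 0.56. Mixl1, a homeobox factor of mesendoderm, went from 20.6 to 4.47 RPM (log2 ratio -2.20), and Foxa3, Eomes, Gsc and Foxa1 were lost as well. Foxa2, a pioneer factor of endoderm, went from 8.63 to 5.01 RPM and was called neither. Sox17, a defining endoderm factor, was not tested, at 3.70 and 1.38 RPM. The gain was Lhx1 (12.7 to 27.2 RPM, log2 ratio 1.09), a LIM factor also used in kidney and neurons. Of the 10 liver and visceral endoderm genes only Rbp4 was tested, and it was lost (18.1 to 5.97 RPM). Afp, Alb and Ttr had no mESC tag and 11, 7 and 13 PILEC tags.

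Markers of other lineages that such cultures could hold gave both gains and losses, where 6.99% of all tested promoters were gained and 12.8% lost. Of caudal and early mesoderm regulators 6 of 9 tested were lost and none gained. Their median log2 ratio was -1.31, and -0.40 when divided by the inputs, where the median of all tested promoters became 0.56. T (brachyury) went from 11.5 to 2.93 RPM (log2 ratio -1.97), Cdx1 had the lowest ratio (-3.71) and Tbx6 the highest (0.77, called neither). Of 14 muscle genes 5 were tested and 3 were lost, among them Myod1 (8.63 to 1.07 RPM) and Des (9.04 to 0.906 RPM), both tested through mESCs alone. Mef2c, used in muscle and neurons, was gained (5.34 to 19.9 RPM). The median log2 ratio of muscle genes was -2.03 over the 5 tested and -0.51 over all 14. Fibroblast and matrix genes were gained at 4 and lost at 2 of 15 tested, with sums of 234 RPM in mESCs and 304 RPM in PILECs. Here Col3a1, a fibrillar collagen, went from 1 to 115 tags (0.411 to 6.13 RPM, log2 ratio 3.90) and Vim, the filament of mesenchymal and neural progenitor cells, from 24.3 to 63.0 RPM (log2 ratio 1.38). Pdgfrb and Prrx1 were the other gains, and Thy1 and Twist2 were lost. Col1a1 was called neither (6.58 and 10.9 RPM), and Dcn and Acta2 had no mESC tag. None of 3 tested endothelial and blood genes and none of 3 tested trophoblast genes was gained or lost. The part that any other cell type had in the gains was not tested.

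Hox genes changed in both directions. These genes encode homeobox factors that pattern the body axis, and higher paralogue numbers act nearer the tail. Of 34 tested Hox promoters 13 were gained and 13 lost, against 6.99% and 12.8% of all tested promoters. The 13 gained ones held at most 3.29 RPM in mESCs, so they were tested through PILECs alone and could not be called lost. Some losses, such as Hoxc12 and Hoxc11, were tested through mESCs alone and could not be called gained. Grouped after their values were seen, paralogues 2 to 9 held all 13 gains and 3 losses among 22 tested, whereas paralogues 10 to 13 had 8 losses and no gain among 10 tested. Hoxd1, at the other end of its cluster, was lost (28.8 to 6.34 RPM, log2 ratio -2.18).

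HoxB, on chromosome 11, had 6 gained and no lost promoter of 7 tested, and the 6 were tested through PILECs alone. The median log2 ratio was 2.03 over the 7 tested and 1.72 over all 10 members. Over tested members it ran from 1.51 with a window of 500 bp each side to 3.92 with the input subtracted. Hoxb2 went from 1 to 188 tags (0.411 to 10 RPM), a log2 ratio of 4.61 (2.11 to 9.92), and Hoxb7 went from 1.64 to 14.3 RPM, a log2 ratio of 3.12 (1.75 to 5.01). Hoxb8 went from 0.822 to 10.8 RPM and Hoxb6 from 2.47 to 11.6 RPM. Hoxb9 carried the mark in both cell types, at 12.7 and 11.5 RPM, and was called neither. Losses at the distal end were Hoxa13, Hoxc11 to Hoxc13 and Hoxd10 to Hoxd13. Hoxc13 went from 29.2 to 3.14 RPM (log2 ratio -3.22), Hoxc12 from 6.99 to 0.692 RPM and Hoxc11 from 6.99 to 1.01 RPM, while Hoxc9 (2.88 to 9.22 RPM), Hoxc8 (1.23 to 5.27 RPM) and Hoxc6 (3.29 to 9.16 RPM) in the same cluster were gained. Hoxd13 went from 16.4 to 1.76 RPM (log2 ratio -3.23) and Hoxa13 from 9.87 to 2.34 RPM (log2 ratio -2.07), against gains at Hoxd3 (2.47 to 10.5 RPM), Hoxa6 (0.822 to 8.90 RPM), Hoxa3 (2.06 to 10.1 RPM) and Hoxa9 (2.47 to 5.75 RPM). Starts of neighbouring Hox genes interleave, and the start used for Hoxa3 (chr6, position 52163066) lay beside that of Hoxa6 (52161355).

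The gains at Hox genes were not seen in the menin-null pair. The 13 gained promoters stood at 0.411 to 3.29 RPM in wt mESCs and 5.22 to 14.3 RPM in wt PILECs. In menin-null cells they stood at 0.569 to 5.97 RPM in mESCs and 0.848 to 2.88 RPM in PILECs. None of the 13 was gained there, where 560 of all 1058 wt gains (52.9%) were. In 10 of the 13 the log2 ratio was below 0, where the median over all promoters tested in the menin-null pair was -0.32. Of the 13 losses 10 were also called in the menin-null pair, as were 81.8% of all wt losses. Each of these values rests on 1 library, and the difference between the pairs was not tested.

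**Figure D4:**
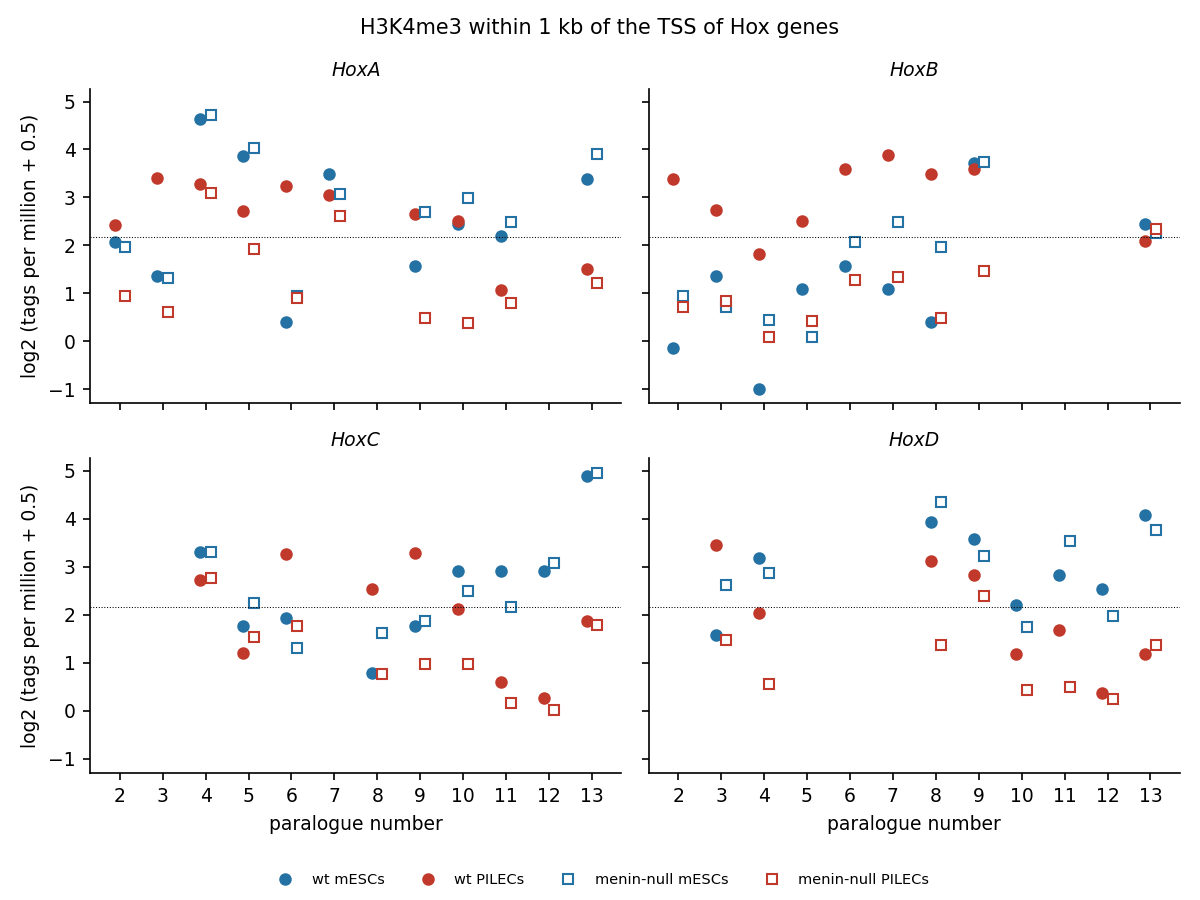
H3K4me3 level as log2 of RPM with 0.5 added (vertical axis) at the promoters of the 4 Hox clusters by paralogue number from 2 to 13 (horizontal axis) in wt (circles) and menin-null (squares) mESCs and PILECs, with 1 library each and a dotted line at the minimum level of 4 RPM. The 6 gained HoxB promoters lie above the dotted line in wt PILECs and below it in wt mESCs and menin-null PILECs, and Hoxc11 to Hoxc13 and Hoxd13 are lower in PILECs of both genotypes.

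Imprinted genes, which are used from 1 parental copy, were gained at 9 and lost at 3 of 15 tested, against 6.99% and 12.8% of all tested promoters, at a median log2 ratio of 1.23. Peg10, a retrotransposon-derived gene of the paternal copy, went from 8.63 to 47.9 RPM, a log2 ratio of 2.47 (1.85 to 3.17). Sgce, whose start lies beside that of Peg10, shares tags with it (8.22 to 49.3 RPM). Peg3 went from 23.0 to 63.3 RPM, Zrsr1 from 30.8 to 91.7 RPM and Plagl1 from 12.7 to 33.9 RPM. Airn, the antisense transcript within Igf2r, was gained (6.58 to 20.7 RPM, log2 ratio 1.65), whereas the Igf2r promoter itself was lost (39.5 to 13 RPM, log2 ratio -1.60). Nnat, Snrpn and H19 were the other gains, the last from 2.06 to 5.49 RPM. Grb10, a signalling adaptor, was lost (29.6 to 6.02 RPM, log2 ratio -2.30), as was Dlk1 (10.7 to 2.98 RPM). Of the 9 gains 8 were also gained in the menin-null pair, as were 52.9% of all wt gains. The tags do not tell the parental copies apart.

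Of 20 housekeeping genes none was gained and 1, Rpl10a, was lost, against 6.99% and 12.8% of all tested promoters. The median log2 ratio was -0.05, with a range of single ratios from -1.21 to 0.60. It was 0.63 when divided by the inputs, where the median of all tested promoters became 0.56. Actb went from 74.8 to 81.1 RPM, a log2 ratio of 0.12 (-0.11 to 0.35). None of 9 tested class I antigen presentation and interferon genes was called, with B2m nearest to the threshold (10.3 to 20.6 RPM). None of 6 tested CDK inhibitor genes was called, among them Cdkn1b (50.2 to 55.6 RPM) and Cdkn1a (45.6 to 31.0 RPM). Of 10 AP-1 and early response genes 2 were lost, Junb (58.4 to 16.6 RPM, log2 ratio -1.82) and Ier2 (90.0 to 40.1 RPM), and none was gained. Over all tested promoters 12.8% were lost and 6.99% gained. Of 16 ligands of the Wnt, Bmp, Tgfb and Hedgehog families 2 were gained and 3 lost, against 6.99% and 12.8% of all tested promoters. Wnt5a, a ligand of non-canonical Wnt signalling, went from 6.99 to 45.3 RPM (log2 ratio 2.70), and Tgfb2 was the other gain. Bmp4 (log2 ratio -2.29), Ihh (-2.07) and Wnt4 (-1.34) were lost. Replication-dependent histone genes, looked at after their values were seen, were gained at 17 and lost at 2 of 60 tested, against 6.99% and 12.8% over all tested promoters, and Hist1h1c went from 6.58 to 22.7 RPM. Histone genes lie close together and windows of neighbours share tags. The 2 lost ones were Hist1h2aa (5.76 to 0.639 RPM) and Hist1h2ba (5.76 to 0.746 RPM), both known as testis histone genes.

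Neighbouring promoters sometimes changed together, and the runs given here were picked after their values were seen. On chromosome 4, 12 tested genes in a row between positions 144836773 and 147183895 were lost, most of them predicted transcripts. On chromosome 5, Gsx1, Pdx1, 2210019I11Rik, Cdx2, Gm17398 and Flt3 (148000272 to 148212065) were lost together, at a median log2 ratio of -1.95. On chromosome 11, 9 promoters of the HoxB region (96144039 to 96216005) were gained, with a median of 1.83. Such genes are not independent, since windows of near starts share tags.

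Chromosomes differed in the share of gains. On chromosome 11, 149 of 1280 tested promoters (11.6%) were gained and the median log2 ratio was 0.32. On the X chromosome 84 of 498 (16.9%) were gained, with a median of 0.30. On chromosome 8, 3.50% were gained and 16.4% lost, with a median of -0.27. On these chromosomes the log2 ratio of the inputs, counted over the whole chromosome, had the same sign as the median. The log2 ratio of PILEC over mESC input was 0.18 on chromosome 11, where the GC content of the chromosome gave -0.26 by the line through the other autosomes. It was -0.23 on chromosome 8 (line at -0.08) and 0.31 on X (line at 0.32). Other chromosomes did not all follow. Chromosome 3 had an input log2 ratio of 0.18 but a median H3K4me3 log2 ratio of 0.07. On chromosomes 12 and 14 the input log2 ratios were 0.07 and 0.08 and the medians -0.11 and -0.04. HoxB lies on chromosome 11, with a median of 2.03 that was 2.60 when divided by the inputs within 5 kb. Under that division the median of all tested promoters went from -0.01 to 0.56. In the menin-null pair the input ratio of chromosome 11 was 0.17 (line at -0.28) and the HoxB median over all 10 members was -0.57, against 1.72 over the same 10 in the wt pair. The part of the chromosome 11 input in the HoxB ratios was not tested. With each ratio divided by the input ratio of its chromosome, 96 promoters (7.50%) were gained on chromosome 11 and 46 (9.24%) on X. Outside chromosomes 11, X and Y the share was 6.59% after that division. Without it, 824 of 13361 promoters outside these chromosomes (6.17%) were gained and 1757 (13.2%) lost.

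**Figure D5:**
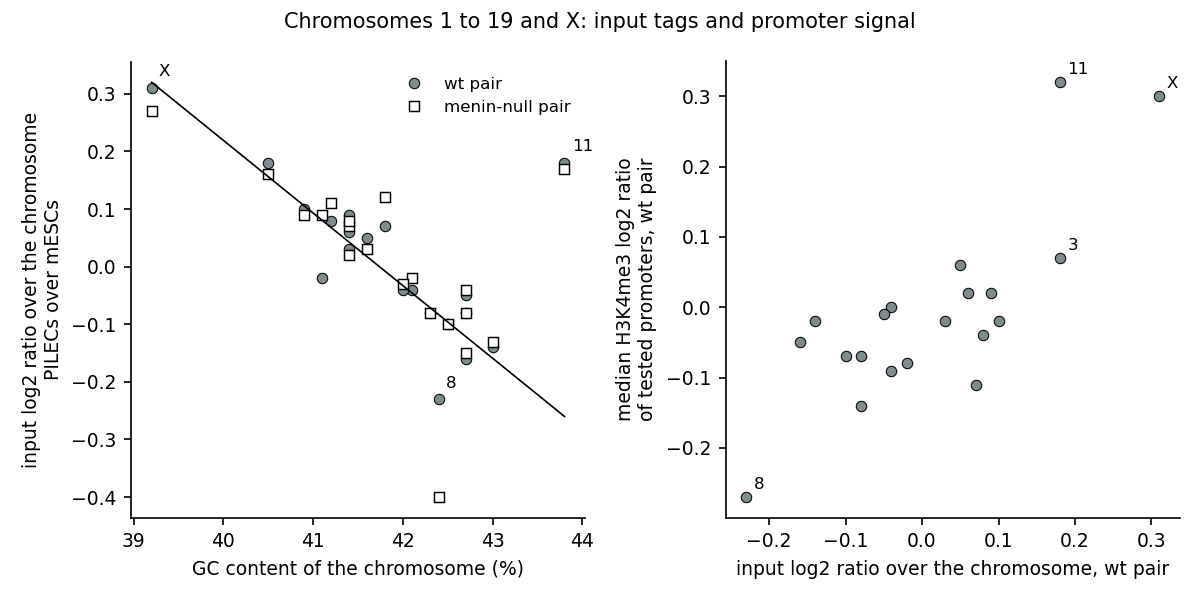
Log2 ratio of PILEC over mESC input per chromosome against its GC content in percent for the wt and menin-null pairs, with the line through the wt autosomes other than 11 (left), and the median log2 ratio of H3K4me3 at tested promoters against the input ratio in the wt pair (right). Chromosome 11 lies above the line in input (0.18 against -0.26) and has a median H3K4me3 ratio of 0.32.

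Enriched regions were also sought without the annotation. Of 13446 enriched regions 1020 (7.59%) were gained and 1972 (14.7%) lost. Gained regions lay within 1 kb of an annotated start in 87.5% of cases and had a median length of 1400 bp. Lost regions did so in 64.9%, with 19.5% inside genes and 15.6% between genes, and were 800 bp long at the median. Regions called neither lay within 1 kb of a start in 93.3%. Among regions away from starts, 1 gained region of 1800 bp inside Gpr56, an adhesion receptor gene (chr8:97518601-97520400), held 0 mESC and 458 PILEC tags. Another, chr3:17690001-17691800 between genes, held 2 and 726 tags, a log2 ratio of 5.56 (3.70 to 8.60). By the interval bound nearest 0, the strongest loss away from starts lay inside Crb2 (chr2:37648601-37649400), with 33 and 2 tags, but the mESC input held 16 tags there. A lost region between genes, chr2:152003401-152005000, held 67 and 10 tags with 5 and 14 input tags, a log2 ratio of -5.69 (-6.82 to -4.73).

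The menin-null pair gave its own calls over the same promoters. Of 14966 tested there, 756 (5.05%) were gained and 3152 (21.1%) lost, and the median log2 ratio was -0.32. Of the wt gains 560 (52.9%) were gained and of the wt losses 1587 (81.8%) were lost in menin-null cells too, which were 74.1% of the menin-null gains and 50.3% of its losses. Opposite calls were made at 4 gained and 1 lost promoters. With the menin-null median set to 0, the shared calls were 780 gains (73.7% of the wt gains) and 1447 losses (74.6% of the wt losses). Medians of the wt classes ran alike, at 9.67 and 23.0 RPM in menin-null mESCs and PILECs for wt gains and 13.2 and 2.26 RPM for wt losses. Between libraries of like cells the same call was rarer. Menin-null and wt mESCs, which share the wt mESC library with the main comparison, differed at 221 of 15041 promoters (1.47%), and menin-null and wt PILECs at 108 of 13939 (0.775%), of which 97 were lower in menin-null cells.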

How the data were processed

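H3K4me3 ChIP and input DNA of wt and menin-null mESCs and PILECs were sequenced, with 1 library for each. Per the methods and the labels, the authors read 36 bases on the Illumina GAII and aligned them to mm9, using only reads that matched 1 place with no more than 2 mismatches. In the files 1.04 to 1.81% of the tags carried more than 2. The aligner is not given in the sources used here. The deposited files hold 1 line per tag with its position and strand and a whole-number score per tag that the authors did not explain, and this score was not used.

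Here each tag was moved by 125 bp along its strand, to the middle of a 250-bp fragment. Tags within 1 kb of each of the starts of GENCODE vM1 genes were counted and divided by the total tags of the library. Where a gene had several starts, the start with the highest summed level of both wt H3K4me3 libraries was used. Intervals of ratios were exact conditional binomial (Clopper-Pearson) intervals at 95%. PCR copies were kept (11.3% and 11.4% of the wt H3K4me3 tags), so intervals and floors cover counting error only. Depth ran from 2432377 to 18773635 tags in the wt H3K4me3 libraries, and levels of the mESC library are the less precise ones. Regions were 200-bp windows at a Poisson p of 1e-05 or lower, joined over 400 bp and at least 600 bp long, in the mESC library or in the PILEC library thinned to its depth. GC and CpG contents were read from the mm9 sequence.

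Groups were taken from the labels. No test across samples was run, since each group had 1 library. Named are the 12 promoters per direction with the interval bound nearest 0 farthest from 0, and from each list the defining members and those with the highest and lowest ratios. Other members are named to describe their list. Some of the items that this rule names are not reported here. The members and the gene lists were chosen with earlier results of these data known. The scripts were tested on simulated data. Alternatives changed the scaling, the use of the input, the window, the start, the minimum level, the fold, the treatment of copies and mismatches, the chromosomes and the GC content. Python 3.11.15 with numpy 2.4.6, pandas 2.3.3, scipy 1.17.1 and matplotlib 3.10.9 was used.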

Additional observations from a re-analysis of the deposited data

Results flagged for a closer look

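At 5 promoters the wt pair and the menin-null pair were called in opposite directions. The difference between the pairs was not tested, and each value rests on 1 library. The 4 promoters gained in the wt pair and lost in the menin-null pair were 3 Hox genes and 1700109F18Rik. Hoxb7 held 4 tags in wt mESCs and 269 in wt PILECs, but 18 and 36 in menin-null cells, with log2 ratios of 3.12 and -1.33. Hoxd3 held 6 and 197 tags in wt and 20 and 40 in menin-null cells, with log2 ratios of 2.09 and -1.33. Hoxa9 held 6 and 108 tags in wt and 21 and 16 in menin-null cells, with log2 ratios of 1.22 and -2.72. 1700109F18Rik held 6 and 219 tags in wt and 19 and 42 in menin-null cells, with log2 ratios of 2.24 and -1.19. These counts were close to those of Hoxd3, and whether the windows of Hoxd3 and 1700109F18Rik share tags was not examined. Pcdhb1, a clustered protocadherin, was lost in the wt pair (17 and 56 tags, log2 ratio -1.23) and gained in the menin-null pair (12 and 153 tags, log2 ratio 1.34).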

How the results depend on the processing

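No paired analysis was possible because each group had 1 library, and for the same reason no replicate could be left out. The counts of gained and lost promoters and regions stayed within 1.5 times their main values under all other alternatives that were run, and the exceptions are these. With the ratio divided by that of the inputs within 5 kb, 3850 promoters were gained and 1171 lost and the median log2 ratio was 0.56, with the medians of 0.51 for islet transcription factors, 0.49 for HoxA, 0.02 for endothelial and blood, 0.74 for trophoblast, 0.53 for CDK inhibitor, 0.70 for AP-1 and 0.63 for housekeeping genes turned from negative to positive. With copies counted once the median log2 ratio of all promoters was -0.15. At 4-fold, 216 promoters were gained and 892 lost, and 224 regions were gained and 1041 lost. With regions of at least 1 kb, 873 were lost. With 500 bp around the start the medians of beta-cell secretion genes (-0.05), ligands (-0.16) and housekeeping genes (0.02) changed sign, as did HoxA (0.01) with 2 kb and ligands (-0.07) with the 5′ end of the gene as start. Another 24 list medians moved without a change of sign. Divided by the inputs these were pluripotency (-2.40), epithelial (-1.59), beta-cell secretion (1.21), definitive endoderm (-0.13), liver (-0.98), caudal (-0.40), HoxB (2.60), HoxC (-0.03), HoxD (-0.20), muscle (-0.80) and class I (1.40) genes and ligands (0.90). With input tags subtracted they were pluripotency (-3.75), germ line (-3.59), HoxB (3.92) and muscle (-2.83) genes, and with PILEC tags thinned liver (-2.14) and HoxD (-2.09). With 500 bp they were HoxA (-1.3) and HoxB (1.51), with 2 kb HoxD (-0.61), neural (1.32) and muscle (-0.61) genes, and with the 5′ end of the gene HoxA (-0.78). A stricter fold or length lowers a count by construction, and the cause of the other changes was not tested. The depth of the mESC library, where 3 tags equal 1.23 RPM, limits what can be said of low promoters in mESCs.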
